A study of Mus musculus with 8 samples.

Results

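TREM and CD300 proteins are cell-surface receptors of myeloid cells, and TYROBP (also called DAP12) is the adaptor that passes on the signal of several of them. A group of 9 such genes was followed in mouse bone marrow-derived macrophages (BMDMs): *Trem1*, *Trem2*, *Trem3*, *Treml2*, *Tyrobp*, *Cd300a*, *Cd300lb*, *Cd300ld* and *Cd300lf*. They were taken by symbol, 9 of the 50615 genes in the count table, and all 9 of 9 passed the filter on low counts that kept 17625 genes for testing. These genes and the gene lists below were chosen with earlier results of these data known. Counts of called genes beside the share over all genes are therefore descriptive. The RNA came from C57BL/6 mice with loxP sites in *Ncoa6*, which encodes a nuclear receptor coactivator. *Ncoa6*fl/fl mice, labelled WT and called *Ncoa6*-sufficient here, carried no Cre. *Ncoa6*fl/fl *LysM*CRE mice (*Ncoa6*-KO) carried Cre at the lysozyme locus *Lyz2*, which acts in myeloid cells, so both genotypes had the floxed gene. Bone marrow cells of both genotypes became macrophages during 6 days of culture with 20 ng/ml of M-CSF. They were then left in medium alone, or primed with 100 ng/ml of LPS (4 h) before 200 µg/ml of MSU (monosodium urate) crystals were added (2 h), a treatment called LPS + MSU. Each of the 4 groups had 2 libraries, which the methods describe as made from different mice, with no age given.

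TYROBP has hardly any extracellular part of its own and sits in the membrane beside a receptor. When the receptor is engaged, the ITAM motif of TYROBP is phosphorylated by SRC family kinases and recruits the kinase SYK. Some receptors use the related adaptors FCER1G or HCST instead. CD300A and CD300LF carry ITIM motifs, which recruit phosphatases such as PTPN6 and dampen signals. TREM1 is known as an amplifier of inflammatory responses to bacteria, and TREM2 as a lipid and lipoprotein sensor of macrophages and microglia.

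Values are normalized counts, that is, expected counts rounded and scaled with edgeR's TMM factors to a common library size. The libraries held between 25281955 and 33673552 counts, and the TMM factors ran from 1.23 to 1.29 in medium and from 0.766 to 0.829 after LPS + MSU. *Ncoa6* itself was at 1515 and 1405 in *Ncoa6*-sufficient and at 784 and 622 in *Ncoa6*-KO cells in medium. It was at 1297 and 1173 against 563 and 526 after LPS + MSU. The *Ncoa6*-KO cells thus had 48.2% and 44.1% of the whole-gene count of *Ncoa6*, a count that does not resolve the floxed exon. All 8 of 8 macrophage markers were detected, 4 of 6 T and NK cell markers were at 0 in every library, and neutrophil markers summed to between 445 and 992. Endothelial markers summed to 365 to 712 in medium and 3063 to 6926 after LPS + MSU. Most of that sum was *Kdr*, with means of 586 in *Ncoa6*-sufficient and 355 in *Ncoa6*-KO cells in medium. After LPS + MSU its means were 6446 and 4123. *Cdh5* and *Pecam1* rose too, from much lower levels. Over all libraries, osteoclast markers summed to 772 to 2339, stromal to 133 to 894 and mast cell to 22.2 to 592. The mast cell sum was nearly all *Kit*, and 4 of 6 mast cell markers were at 0 in every library. Dendritic cell markers summed to 18.9 to 278 and B cell markers to 8.39 to 50.3. The macrophage marker sum was lower in *Ncoa6*-KO libraries, at 265898 to 306490 against 405656 to 470584 in medium and at 370997 to 394210 against 499722 to 557527 after LPS + MSU. *Lyz2*, the locus that carries Cre, makes up a large share of that sum and of its difference between genotypes. Its means were 119774 in *Ncoa6*-KO against 240995 in *Ncoa6*-sufficient cells in medium, and 126325 against 243832 after LPS + MSU. In bulk RNA, fewer cells of a type and less RNA per cell cannot be told apart.

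The 9 genes lie in 3 places of the GRCm38 genome. *Trem1* (chr17:48232768-48246924), *Trem3* (chr17:48247777-48258841), *Treml2* (chr17:48299498-48312533) and *Trem2* (chr17:48346401-48354147) stand in that order on the forward strand within 121380 bp. *Cd300a* (chr11:114890041-114904654, forward), *Cd300lb* (chr11:114922781-114934386, reverse), *Cd300ld* (chr11:114982274-114989922, reverse) and *Cd300lf* (chr11:115116214-115133992, reverse) stand within 243952 bp. *Tyrobp* (chr7:30413760-30417585, forward) lies 126 bp from *Hcst*, which runs the other way. *Cd300lf* overlaps *Rab37*, a gene of the opposite strand, with 0 exonic bases in common, and *Rab37* had between 11 and 37 counts in any library. Of all 100-base windows of its transcripts, *Cd300lf* shared 0.644% with *Cd300ld*, *Cd300ld* shared 1.37% with *Cd300lf*, and *Cd300a* shared 0.849% with *Cd300c2*. All other windows of these genes had no exact match in another gene. The expected counts of *Cd300lf* and *Cd300ld* were whole numbers in 0 of 8 libraries and those of *Cd300a* in 1 of 8. Some of their reads may thus have been split with other genes.

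RefSeq held a promoter for 6 of the 9 genes, each with 250 bases before and 50 after the start site. The promoters of *Cd300lf*, which was lower in *Ncoa6*-KO cells, and of *Cd300a* and *Cd300lb*, which fell together after LPS + MSU, are shown 5′ to 3′ on the strand of the gene. Capitals mark GAGGAA or its reverse complement TTCCTC, the core that PU.1, an ETS factor of macrophages, often binds. The windows are chr11:115133943-115134242 (reverse) for *Cd300lf*, chr11:114889791-114890090 (forward) for *Cd300a* and chr11:114934322-114934621 (reverse) for *Cd300lb*, all in GRCm38.p6.
Cd300lf: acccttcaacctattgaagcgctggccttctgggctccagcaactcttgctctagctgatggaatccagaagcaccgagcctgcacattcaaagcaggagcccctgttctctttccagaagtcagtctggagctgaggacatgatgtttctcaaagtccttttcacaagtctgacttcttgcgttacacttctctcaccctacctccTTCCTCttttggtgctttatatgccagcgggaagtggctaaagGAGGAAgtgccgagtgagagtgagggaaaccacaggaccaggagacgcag
Cd300a: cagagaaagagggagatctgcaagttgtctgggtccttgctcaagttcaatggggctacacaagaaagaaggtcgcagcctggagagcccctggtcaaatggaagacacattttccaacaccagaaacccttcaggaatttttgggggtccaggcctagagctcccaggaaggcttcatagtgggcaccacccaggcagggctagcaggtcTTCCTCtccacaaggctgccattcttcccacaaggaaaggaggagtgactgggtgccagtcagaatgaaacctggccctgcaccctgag
Cd300lb: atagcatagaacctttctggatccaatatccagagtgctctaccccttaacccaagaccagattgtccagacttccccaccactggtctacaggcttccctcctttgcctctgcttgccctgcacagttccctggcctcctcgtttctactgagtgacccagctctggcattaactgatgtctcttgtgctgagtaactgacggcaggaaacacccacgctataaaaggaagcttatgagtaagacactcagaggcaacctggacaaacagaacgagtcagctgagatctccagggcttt

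With the start base counted as 0, *Cd300lf* had 2 matches, beginning at -43 and at 0, and *Cd300a* had 1 at -39. *Trem2* had 1 match at -40, *Cd300ld* 1 at -143 and *Trem1* 1 at -162, whereas *Cd300lb* had 0 in this window. Among the 32851 promoters of the table, 28.3% held GAGGAA on either strand. AGGTCA, a nuclear receptor half-site held by 16.3% of all promoters, matched only *Trem2* among these 6, beginning at -68. TGANTCA, the AP-1 motif held by 7.81%, likewise matched only *Trem2*, at -9. Both strands were searched in each case, and a match is only a match of letters.

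Levels of different genes were compared as normalized counts per kb of exon. *Tyrobp* stood highest in every group, at 18535 ± 3295 (SD, n = 2) in *Ncoa6*-sufficient cells in medium, and *Trem2* followed at 4269 ± 399. *Cd300lb* at 1875 ± 266, *Cd300ld* at 1336 ± 258, *Cd300a* at 907 ± 183 and *Cd300lf* at 262 ± 35.8 came next in that group. *Treml2* at 21.4 ± 3.35, *Trem3* at 13.5 ± 4.15 and *Trem1* at 8.19 ± 2.24 were the lowest. No neighbours in this order overlapped between their libraries in medium in *Ncoa6*-sufficient cells. In *Ncoa6*-KO cells the libraries of *Trem1*, *Trem3* and *Treml2* overlapped under both conditions, so these 3 could not be ordered. After LPS + MSU the order of the 4 CD300 genes among the 9 changed. *Cd300ld* was then the highest of these 4, at 834 ± 71.1 in *Ncoa6*-sufficient and 717 ± 28.1 in *Ncoa6*-KO cells. *Cd300lf* was second of these 4 in *Ncoa6*-sufficient cells at 325 ± 1.75 per kb and last in *Ncoa6*-KO cells at 142 ± 13.3 per kb.

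**Figure D1:**
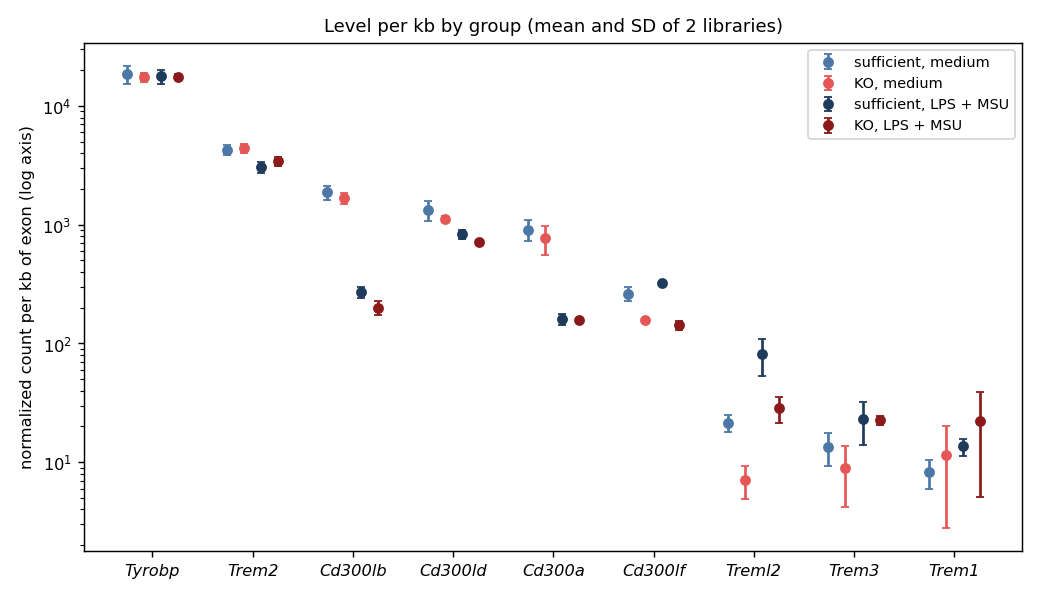
Normalized counts per kb of exon on a log axis for the 9 genes, ordered by their level in *Ncoa6*-sufficient cells in medium. Points are means and bars SDs of the 2 libraries of each group. *Tyrobp* and *Trem2* lead in all 4 groups, and *Cd300lb* and *Cd300a* drop after LPS + MSU.

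The level of each of these genes was compared across the genotypes under each condition. Cre at *Lyz2* was present only in *Ncoa6*-KO cells, and no group carried Cre with *Ncoa6* intact. The part of Cre in any difference by genotype was therefore not tested. *Cd300lf* and *Treml2* were lower in *Ncoa6*-KO cells under both conditions, whereas the adaptor gene *Tyrobp* and *Trem2* were not called under either. By edgeR's quasi-likelihood test with Benjamini-Hochberg adjustment over 17625 genes, 2 of the 9 genes were lower and 0 higher in medium, where 1.3% of all genes were called lower, 0.573% higher and 1.88% in either direction. After LPS + MSU again 2 were lower and 0 higher, against 1.63% of all genes lower, 1.96% higher and 3.59% in either direction. The median log2 fold change of the 9 genes was -0.24 in medium, beside -0.03 over all genes, and -0.03 after LPS + MSU, beside 0.00039.

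*Cd300lf* encodes an inhibitory receptor that binds lipids such as phosphatidylserine and sphingomyelin. In medium it was at 1218 and 1479 normalized counts in *Ncoa6*-sufficient and at 804 and 818 in *Ncoa6*-KO cells. After LPS + MSU it was at 1682 and 1669 against 683 and 781. All 4 *Ncoa6*-KO libraries were thus below all 4 *Ncoa6*-sufficient libraries, with no overlap under either condition. Libraries that did not overlap in this direction were found for 24.5% of all genes in medium and 22.7% after LPS + MSU. The log2 fold change was -0.73 (SE 0.109, adjusted p = 0.00946 by edgeR) in medium, which left 60.2% of the *Ncoa6*-sufficient level. After LPS + MSU it was -1.20 (SE 0.113, adjusted p = 9.01e-04 by edgeR), which left 43.7%. Without the *Ncoa6*-sufficient library 2 of the medium group the first of these values was -0.59 with an adjusted p of 0.0752 by edgeR, and the second kept its call without any single library.

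*Treml2* encodes a TREM family member found on macrophages, neutrophils and B cells. It was at 117 and 93.8 normalized counts in *Ncoa6*-sufficient and 42.4 and 27.2 in *Ncoa6*-KO cells in medium. After LPS + MSU it was at 499 and 303 against 165 and 116. The genotypes did not overlap within a condition, but the *Ncoa6*-KO libraries after LPS + MSU reached the level of the *Ncoa6*-sufficient libraries in medium. *Treml2* in *Ncoa6*-KO cells was at 33.5% of the *Ncoa6*-sufficient level in medium (log2 fold change -1.58, SE 0.310, adjusted p = 0.0319 by edgeR) and at 35.1% after LPS + MSU (-1.51, SE 0.270, adjusted p = 0.0149). These values rested on few reads, between 31 and 360 counts per library. In medium the adjusted p from edgeR rose to 0.332 without the *Ncoa6*-sufficient library 1 (log2 fold change -1.41), to 0.0907 without library 2 (-1.73) and to 0.159 without the *Ncoa6*-KO library 2 (-1.31). With limma-voom it was 0.0703 (-1.59). After LPS + MSU the edgeR value rose to 0.147 without the *Ncoa6*-sufficient library 1 and to 0.154 without the *Ncoa6*-KO library 2 with log2 fold changes of -1.12 and -1.29.

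**Figure D2:**
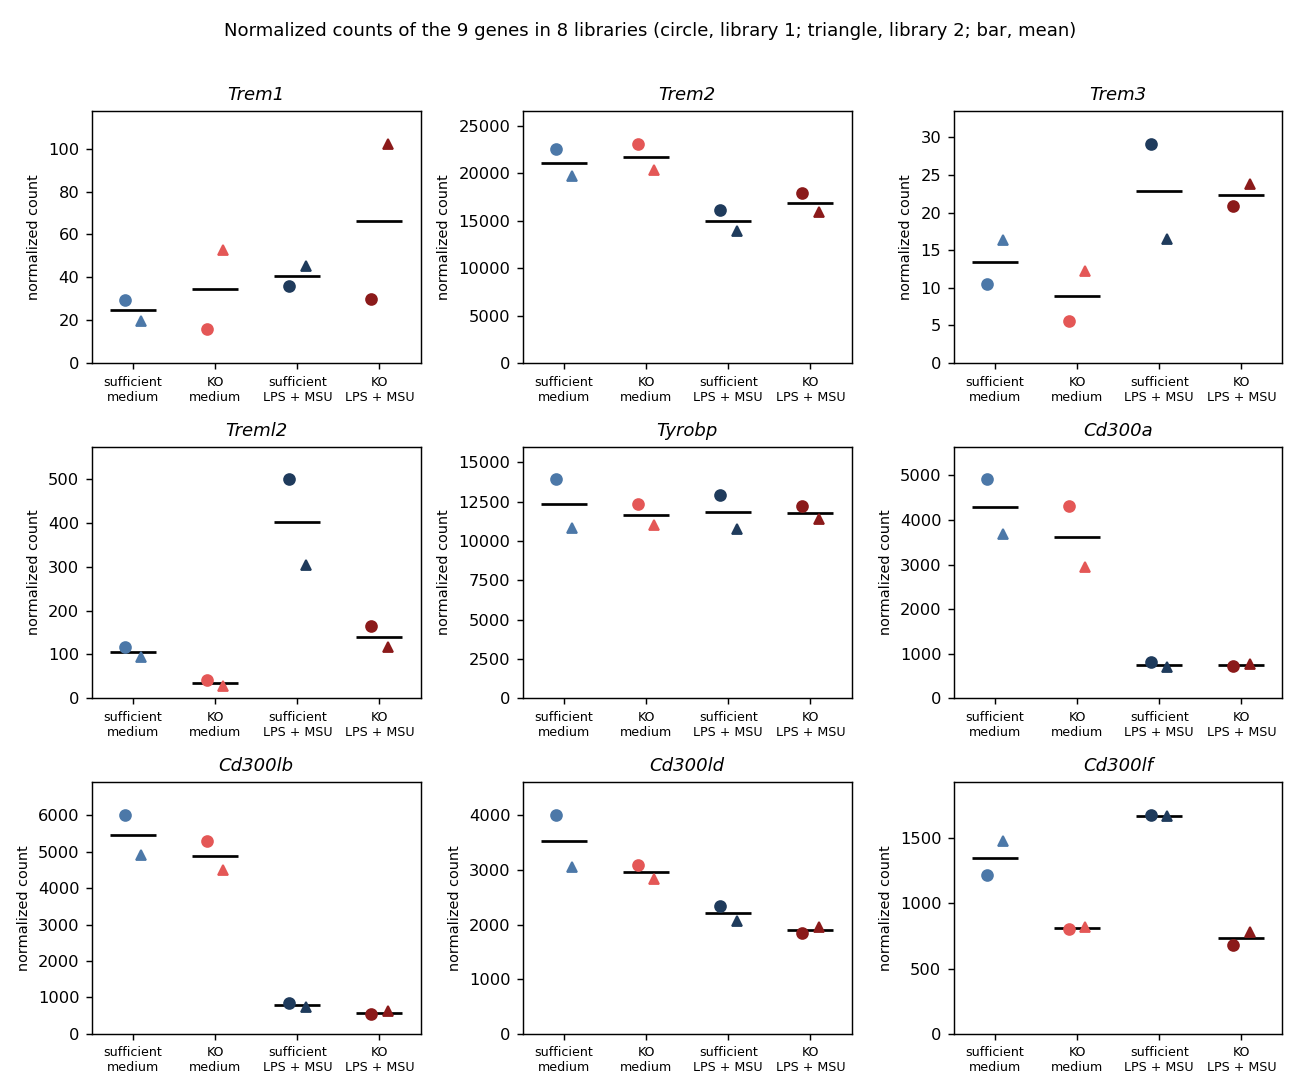
Normalized count of each gene in each library, with a separate vertical axis from 0 for each gene. Circles are libraries 1 and triangles libraries 2 of a group, and black bars are the means of the 2 libraries. *Cd300lf* and *Treml2* are lower in the *Ncoa6*-KO libraries of each condition, while the genotypes overlap for *Tyrobp* and *Trem2*.

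*Tyrobp* was at 13917 and 10809 normalized counts in *Ncoa6*-sufficient and 12331 and 11005 in *Ncoa6*-KO cells in medium, and at 12900 and 10768 against 12223 and 11390 after LPS + MSU. The genotypes overlapped in both conditions. The 95% confidence interval of its log2 fold change between genotypes ran from -0.39 to 0.22 in medium and from -0.31 to 0.31 after LPS + MSU. *Trem2* was at 22508 and 19718 against 23079 and 20387 in medium, and at 16139 and 13893 against 17932 and 15908 after LPS + MSU. Here too the libraries overlapped, with intervals from -0.24 to 0.32 and from -0.11 to 0.45 on the log2 scale. With 2 libraries per group, differences between genotypes of any size within these intervals remained compatible with the data.

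*Cd300lb* encodes an activating receptor that pairs with TYROBP. In medium it was at 6018 and 4920 normalized counts in *Ncoa6*-sufficient and 5287 and 4494 in *Ncoa6*-KO cells, and the genotypes overlapped. After LPS + MSU it was at 852 and 724 against 529 and 637, with both *Ncoa6*-KO libraries below the others. Its log2 fold change there was -0.44 (SE 0.148, adjusted p = 0.150 by edgeR), not called by edgeR but called by DESeq2 (adjusted p = 0.0474) and by edgeR with no filter on low counts (0.0102). *Cd300ld*, an activating receptor, was at 4015 and 3051 against 3099 and 2842 in medium, and at 2340 and 2074 against 1844 and 1949 after LPS + MSU. The *Ncoa6*-KO libraries of *Cd300ld* were both lower only after LPS + MSU, where the log2 fold change was -0.22 (95% interval -0.51 to 0.07, adjusted p = 0.435 by edgeR). *Cd300a*, an inhibitory receptor for phosphatidylserine and phosphatidylethanolamine, was at 4911 and 3683 against 4324 and 2936 in medium. After LPS + MSU *Cd300a* was at 816 and 698 against 736 and 771. The genotypes overlapped for *Cd300a* in both conditions, with intervals from -0.63 to 0.14 and from -0.43 to 0.42.

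*Trem1* and *Trem3*, another activating receptor of the mouse, were measured with few reads. *Trem1* had 39 and 23 counts in *Ncoa6*-sufficient and 23 and 60 in *Ncoa6*-KO cells in medium, and 26 and 33 against 23 and 73 after LPS + MSU. Both *Ncoa6*-KO libraries numbered 2 were the high ones, and the genotypes overlapped. The summed stromal markers, 5 genes such as *Col1a1* of which 0 were at 0 in every library, were at 133 and 439 normalized counts in the *Ncoa6*-KO libraries 1 and 2 in medium and at 338 and 802 after LPS + MSU. After LPS + MSU *Col1a1* (69.3 and 323) and *Col1a2* (79.7 and 319) were higher in the *Ncoa6*-KO library 2, and *Dcn* (39.2 and 19.6), *Pdgfrb* (137 and 130) and *Lum* (13.1 and 9.79) were not. In *Ncoa6*-sufficient libraries that sum was 393 and 372, then 894 and 870, and its part in the *Trem1* values was not tested. *Trem3* had 8 to 19 counts in the medium libraries and 12 to 21 in those after LPS + MSU. Neither gene was called between genotypes, and the 95% intervals were wide, from -0.90 to 1.78 for *Trem1* and from -1.76 to 0.55 for *Trem3* in medium.

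**Figure D3:**
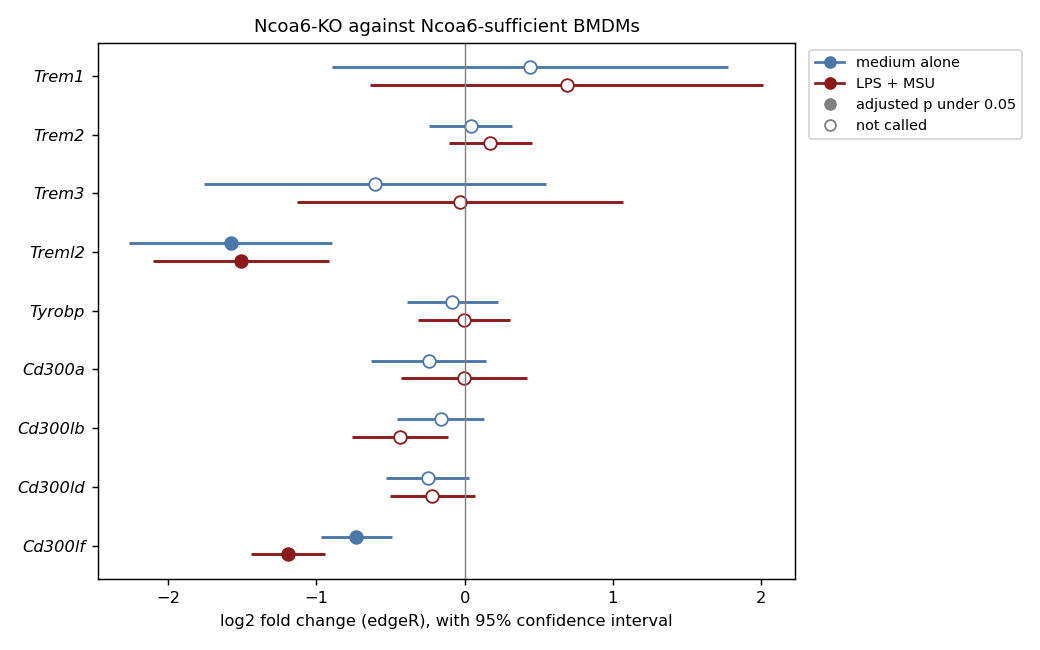
Log2 fold change of *Ncoa6*-KO against *Ncoa6*-sufficient cells with its 95% confidence interval from edgeR, in medium and after LPS + MSU. Filled points are called at an adjusted p under 0.05. *Treml2* (-1.58 and -1.51) and *Cd300lf* (-0.73 and -1.20) are the called genes, and the intervals of the other 7 include 0 apart from *Cd300lb* after LPS + MSU.

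The effect of LPS + MSU was then compared within each genotype, and the 9 genes moved in both directions. The largest changes were the falls of *Cd300lb* and *Cd300a*, and *Treml2* rose in both genotypes. In *Ncoa6*-sufficient cells 2 of the 9 genes were higher and 4 lower by edgeR's test, where 24.7% of all genes were called higher and 30.5% lower. In *Ncoa6*-KO cells it was also 2 higher and 4 lower, against 25.2% and 27.9% of all genes. Since 55.2% and 53.1% of all genes were called in either direction, these counts are near the background. The median log2 fold change of the 9 genes was -0.06 and -0.15, beside -0.12 and -0.07 over all genes. Libraries of the conditions did not overlap for 35.1% (higher) and 43.5% (lower) of all genes in *Ncoa6*-sufficient cells and for 35.4% and 41.1% in *Ncoa6*-KO cells.

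*Cd300lb* fell from 6018 and 4920 to 852 and 724 normalized counts in *Ncoa6*-sufficient cells, and from 5287 and 4494 to 529 and 637 in *Ncoa6*-KO cells. The libraries after LPS + MSU thus held 14.4% and 11.9% of the level in medium (log2 fold changes -2.79, SE 0.146, and -3.07, SE 0.149, adjusted p = 3.30e-08 and 1.96e-08 by edgeR). *Cd300a* dropped to 17.6% in *Ncoa6*-sufficient cells and to 20.7% in *Ncoa6*-KO cells (-2.50, SE 0.192, and -2.27, SE 0.190, adjusted p = 6.60e-07 and 1.53e-06). None of their medium libraries overlapped those after LPS + MSU. *Cd300ld* fell less, to 62.5% and 63.8% (-0.68, SE 0.129, and -0.65, SE 0.129, adjusted p = 8.66e-04 and 0.00133 by edgeR). *Trem2* fell to 71.1% and 77.9% (-0.49, SE 0.127, and -0.36, SE 0.127, adjusted p = 0.00649 and 0.0326). The *Trem2* call was lost in *Ncoa6*-sufficient cells without the medium library 1 (adjusted p = 0.0629 by edgeR) or the LPS + MSU library 2 (0.101). In *Ncoa6*-KO cells it was lost without the medium library 1 (0.160) or the LPS + MSU library 2 (0.199), and with DESeq2's size factors (0.0676).

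*Treml2* rose after LPS + MSU 3.79-fold in *Ncoa6*-sufficient and 3.97-fold in *Ncoa6*-KO cells (log2 fold changes 1.92, SE 0.266, and 1.99, SE 0.316, adjusted p = 8.41e-05 and 2.60e-04 by edgeR). The rise was thus of a similar size from a different base, and the difference of the changes was 0.07 with a 95% interval from -0.81 to 0.95. *Tyrobp* was not called in either genotype, with log2 fold changes of -0.06 (interval -0.37 to 0.25) and 0.02 (interval -0.29 to 0.33). *Trem3* was called higher in *Ncoa6*-KO cells (1.35, SE 0.523, adjusted p = 0.0497 by edgeR), from 5.56 and 12.3 to 20.9 and 23.8 normalized counts. That call was lost without either medium library of *Ncoa6*-sufficient (adjusted p = 0.0570 and 0.0593), the LPS + MSU library 1 of *Ncoa6*-sufficient (0.0526), the medium library 1 of *Ncoa6*-KO (0.262) or either LPS + MSU library of *Ncoa6*-KO (0.107 and 0.152), and by DESeq2 (0.109), with only the 4 libraries compared (0.0580) and with library totals (0.251). *Trem1* was not called by edgeR, with *Ncoa6*-KO libraries at 16.0 and 52.7 in medium and 30.1 and 102 after LPS + MSU. Without the medium library 2 of *Ncoa6*-KO its log2 fold change was 2.03 (adjusted p = 0.0254 by edgeR), and without the LPS + MSU library 1 it was 1.59 (0.0382).

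For *Cd300lf* the libraries of the 2 conditions did not overlap in either genotype, but they differed in opposite directions. In *Ncoa6*-sufficient cells it was higher after LPS + MSU (1682 and 1669 against 1218 and 1479 normalized counts, log2 fold change 0.31, SE 0.108, adjusted p = 0.0290 by edgeR). In *Ncoa6*-KO cells both libraries after LPS + MSU were lower (683 and 781 against 804 and 818), with a log2 fold change of -0.15 (SE 0.113, adjusted p = 0.294 by edgeR). The rise was lost without the medium library 1 of *Ncoa6*-sufficient (0.18, adjusted p = 0.238) and without the LPS + MSU libraries 1 (0.36, 0.0587) or 2 (0.37, 0.0502). Library totals in place of TMM factors shifted the median of all genes by -0.66 in *Ncoa6*-sufficient and -0.63 in *Ncoa6*-KO cells, and *Cd300lf* shifted with it to -0.36 and -0.78 and *Tyrobp* to -0.74 and -0.62. Relative to the median of all genes, *Cd300lf* was at 0.43 and -0.08 with TMM factors and at 0.42 and -0.08 with library totals. DESeq2's size factors shifted the median by 0.11 and 0.06. *Treml2* was higher, and *Cd300lb*, *Cd300a*, *Cd300ld* and *Trem2* were lower, under each of the scalings.

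**Figure D4:**
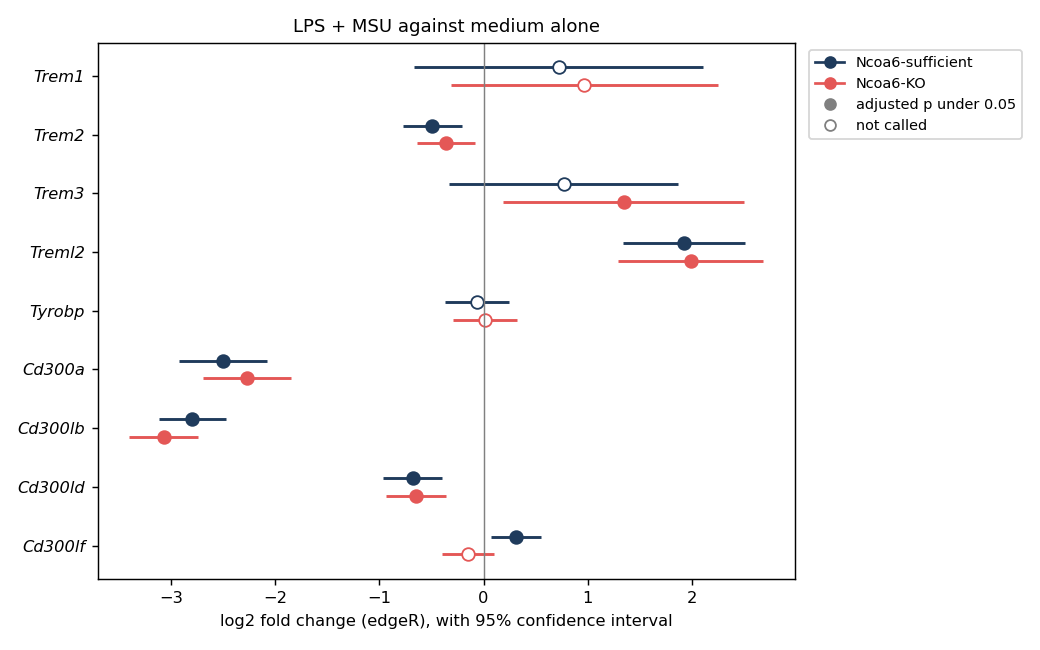
Log2 fold change of LPS + MSU against medium alone with its 95% confidence interval from edgeR, in sufficient and KO cells. Filled points are called at an adjusted p under 0.05. *Cd300lb* and *Cd300a* lie farthest to the left, *Treml2* lies farthest to the right, and *Cd300lf* lies to the right of 0 in *Ncoa6*-sufficient cells at 0.31 (at -0.36 when scaled by library totals, which move the median of all genes by -0.66).

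Whether the knockout effect itself changed after LPS + MSU was tested as the interaction of genotype and condition. Without the replicate number in the model, none of the 9 genes and 0 of 17625 genes (0%) were called by edgeR. An unadjusted p under 0.05 was found for 1045 genes and 1 of the 9. DESeq2 called 43 genes, none of them among the 9. The member at an unadjusted p under 0.05 was *Cd300lf*, with a difference of -0.46 (SE 0.156, 95% interval -0.81 to -0.12, adjusted p = 0.690 by edgeR). With the replicate number as a block within genotype, edgeR called *Cd300lf* (adjusted p = 0.0385). The sources used here do not say that these numbers pair libraries. The comparisons share libraries, so the knockout effects under both conditions are not independent of the effects of LPS + MSU.

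Most other TREM and CD300 genes lie between or beside these 9 on chromosomes 11 and 17. The list of 12 genes used here also held *Cd300lg*, on chromosome 11 but 12834420 bp from *Cd300a*, and *Pigr* on chromosome 1. *Pigr* failed the filter, while the other 11 passed. In medium 0 of these 11 were called between genotypes (median -0.22), beside 1.88% of all genes (median -0.03). After LPS + MSU 2 of 11 were lower in *Ncoa6*-KO cells and 0 higher (median -0.02). Of all genes, 1.63% were then lower and 1.96% higher (median 0.00039). *Cd300e*, an activating receptor of monocytes, was at 535 and 461 normalized counts in *Ncoa6*-sufficient and 252 and 239 in *Ncoa6*-KO cells after LPS + MSU (-1.02, SE 0.189, adjusted p = 0.0178 by edgeR). *B430306N03Rik*, also listed as *Treml6*, was at 7174 and 5795 against 3940 and 3724 (-0.76, SE 0.115, adjusted p = 0.00779). Both genes rose after LPS + MSU, *Cd300e* by 2.17 and 1.55 and *B430306N03Rik* by 2.06 and 1.61 on the log2 scale in sufficient and KO cells. In the opposite direction, *Treml1* fell from 81.1 and 104 to 8.31 and 5.51 in *Ncoa6*-sufficient and from 103 and 112 to 9.15 and 26.6 in *Ncoa6*-KO cells (-3.72 and -2.60). *Cd300c2* fell by 0.58 and 0.32 and *Cd300lg* by 1.03 in *Ncoa6*-sufficient cells, while *Treml4*, *Cd300ld3*, *Cd300ld4* and *Cd300ld5* were not called in any comparison. The numbered *Cd300ld* genes are close paralogs between which reads may have been split, so their counts are uncertain, and *Cd300c* and *Cd300ld2* had at most 8 counts in any library.

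Among the signal carriers, *Fcer1g*, *Hcst* and *Syk* were not called between genotypes. *Fcer1g* was at 13816 and 11318 normalized counts in *Ncoa6*-sufficient and 11512 and 10541 in *Ncoa6*-KO cells in medium, with a log2 fold change of -0.19, and at -0.34 after LPS + MSU (adjusted p = 0.715 and 0.306 by edgeR). *Hcst* was low, at 64.1 to 107 normalized counts in all 8 libraries. *Syk* differed by -0.10 and -0.06 on the log2 scale. *Fcer1g* rose after LPS + MSU by 1.18 and 1.03 and *Syk* by 1.55 and 1.59 in sufficient and KO cells. Of 30 adaptors and kinases of the pathway, 2 were lower and 0 higher in *Ncoa6*-KO cells in medium (median -0.08), and 4 were lower and 3 higher after LPS + MSU (median -0.07). The shares over all genes were 1.3% lower and 0.573% higher in medium, and 1.63% and 1.96% after LPS + MSU. *Lcp2*, the adaptor that links SYK to phospholipase C, was lower in medium by -0.59 (adjusted p = 0.0250 by edgeR). After LPS + MSU, *Pik3cd* was lower by -0.87 and *Vav3* by -0.71, and *Plcg1* was higher by 0.80 and *Src* by 0.67.

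Some receptors outside the family that use TYROBP or a related adaptor were also lower in *Ncoa6*-KO cells. The list used here also held *Csf1r* and *Clec7a*, receptors with signalling parts of their own. Of its 15 tested genes, 3 were called lower and 0 higher under each condition, with medians of -0.28 in medium and -0.52 after LPS + MSU. Of all genes, 1.3% and 1.63% were called lower, with medians of -0.03 and 0.00039. *Pilrb1*, an activating receptor that pairs with TYROBP, was at 155 and 102 normalized counts in *Ncoa6*-sufficient and 35.5 and 35.1 in *Ncoa6*-KO cells in medium, and at 666 and 552 against 193 and 129 after LPS + MSU. Its log2 fold changes were -1.86 and -1.91 (adjusted p = 0.00795 and 0.00310 by edgeR). *Pilrb2*, a close copy whose reads may be shared with *Pilrb1*, was at -1.59 and -1.72. *Fcgr1*, the high-affinity IgG receptor that signals through FCER1G, was at 4911 and 3033 against 1213 and 697 in medium, and at 33934 and 23328 against 13424 and 8582 after LPS + MSU (-2.05 and -1.38, adjusted p = 0.0115 and 0.0353). After LPS + MSU, 9 of the 15 were called higher in each genotype. Of all genes, 24.7% were called higher in *Ncoa6*-sufficient and 25.2% in *Ncoa6*-KO cells. *Clec4e*, a FCER1G-coupled lectin for damaged cells and mycobacterial lipid, rose by 4.99 and 5.58 on the log2 scale.

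Of 14 phosphatases and negative regulators tested, 2 were lower in *Ncoa6*-KO cells in medium (median -0.16) and 3 after LPS + MSU (median -0.21), with 0 higher in either. Beside this list and those below, 1.3% of all genes were lower and 0.573% higher in medium (median -0.03). After LPS + MSU the shares of all genes were 1.63% and 1.96% (median 0.00039). *Ptpn6*, the phosphatase that ITIM motifs recruit, was at 8289 and 7856 normalized counts against 5573 and 5147 in medium, and at 14169 and 13489 against 10953 and 8922 after LPS + MSU. Its log2 fold changes were -0.59 and -0.48 (adjusted p = 0.0317 and 0.0498 by edgeR). *Inpp5d*, a lipid phosphatase that limits the signal of TYROBP, was not called between genotypes and fell by 2.77 and 2.95 after LPS + MSU on the log2 scale. Most of this list rose instead. After LPS + MSU, 8 of the 14 were called higher and 4 lower in *Ncoa6*-sufficient cells (median 0.53). In *Ncoa6*-KO cells 9 were higher and 3 lower (median 0.44). Of all genes, 24.7% and 25.2% were called higher and 30.5% and 27.9% lower (medians -0.12 and -0.07). Of 11 reported ligands and sheddases, 1 was lower in medium, and 2 were lower and 1 higher after LPS + MSU. *Apoe*, a ligand of TREM2, was at 21081 and 12573 normalized counts in *Ncoa6*-sufficient and 3926 and 2459 in *Ncoa6*-KO cells in medium, and at 24985 and 16637 against 4413 and 3187 after LPS + MSU (-2.40 and -2.45, adjusted p = 0.00413 and 0.00348). The other called ligands after LPS + MSU were *Lgals3*, higher by 0.49, and *Hmgb1*, lower by -0.42. *Adam17*, a protease that sheds TREM2, rose by 1.69 and 1.85 after LPS + MSU. Among 22 lipid and phagocyte genes known to depend on TREM2 in other settings, *Apoe* was the 1 called in medium, and 3 were lower and 2 higher after LPS + MSU (median 0.08). Besides *Apoe*, *Itgax* (-0.74) and *Ch25h* (-0.64) were lower and *Spp1* (0.60) and *Lgals3* were higher.

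**Figure D5:**
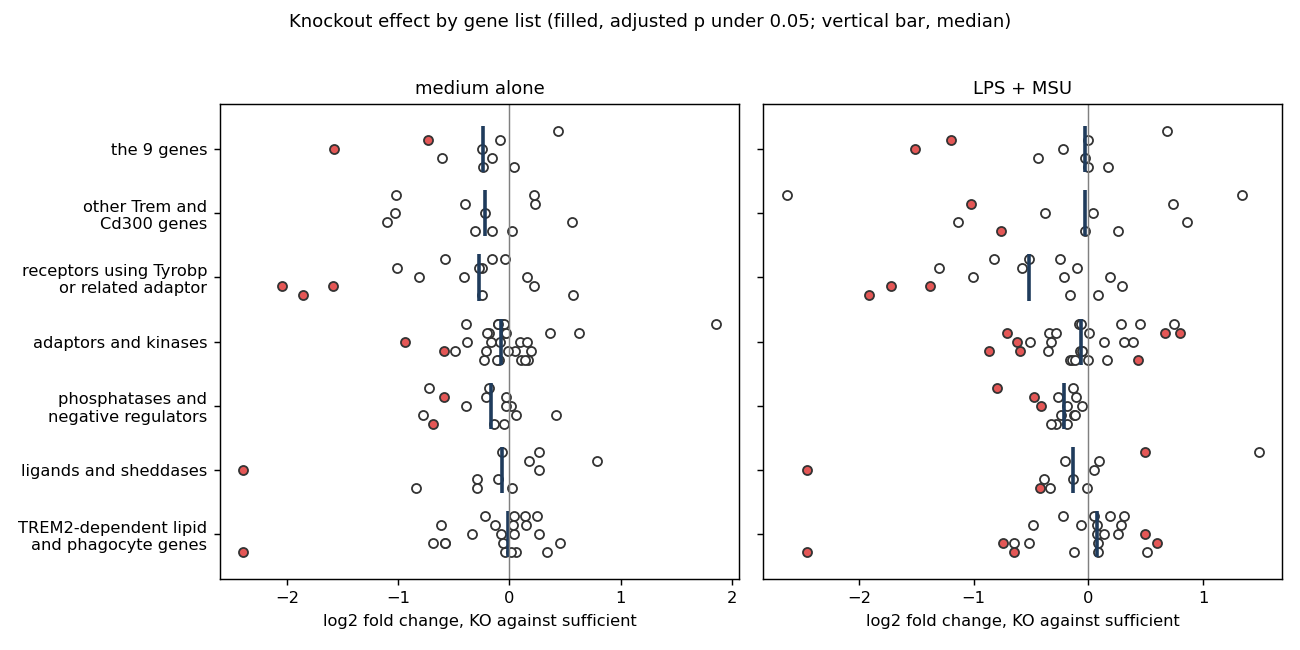
Log2 fold change of *Ncoa6*-KO against *Ncoa6*-sufficient cells for each tested gene of the group and of 6 lists, in medium (left) and LPS + MSU (right). Each circle is a gene, filled where the adjusted p is under 0.05, and vertical bars are list medians. The called genes among the 9 (2 under each condition) and among the receptors that use TYROBP or a related adaptor (3 under each) all lie to the left of 0. Of all genes, 1.3% were called lower in medium and 1.63% after LPS + MSU.

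The genes whose pattern over the 8 libraries lay closest to that of each member were found by the root mean square (RMS) difference in log2 normalized count, with each gene centred on its own mean. For *Cd300lf* they were *Nid2* (RMS 0.224) and *Itgax* (0.237), and for *Treml2* *Ly86* (0.235) and *Ms4a6b* (0.247). For *Cd300a* they were *Otulinl* (0.114) and *Nfam1* (0.134), and for *Cd300lb* *Mknk2* (0.141) and *Itpripl1* (0.150). *Trem1* lay closest to *Postn* (0.302) and *Fn1* (0.342), and *Trem3* to *Gm45716* (0.252) and *Slpi* (0.266). *Cd300ld* lay closest to *Cd59a* (0.0635) and *Ing1* (0.0698). The profiles of *Trem2* and *Tyrobp* were near those of *Urod* (0.0284) and *Slc10a3* (0.0475), and of *Acaa2* (0.0283) and *Msra* (0.0462).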

How the data were processed

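RNA of BMDMs was sequenced in 8 libraries, 2 in each of 4 groups taken from the labels. The authors made stranded mRNA libraries, and the submitters' processing notes name STAR 2.7.3a, RSEM 1.3.3 and GRCm38, with annotation release 101 in the methods. The authors deposited expected counts per gene, not normalized. Whether RSEM used the strand is not given in the sources used here.

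The deposited expected counts were rounded to whole numbers. Only genes whose counts summed to at least 10 across the libraries were tested. edgeR 4.0.16 (R 4.3.3) was fitted with TMM factors to all 4 groups, and calls were made at an adjusted p (Benjamini-Hochberg) under 0.05. Normalized counts refer to a library of 29332200 counts, the mean effective size. An exact permutation test of 2 libraries against 2 cannot give a two-sided p below 0.333, so the p-values rest on a spread shared between genes (median biological coefficient of variation 0.114). The code was checked on simulated counts. Depth was 25281955 to 33673552 counts per library, and intervals from edgeR cover the spread between these libraries.

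The members and gene lists were chosen with earlier results of these data known. The text names the members, *Ncoa6*, the tested other family genes, *Fcer1g*, *Hcst*, *Syk*, for each further list at most the 4 called genes with the largest change and a mean of at least 50 normalized counts, and for each member the 2 genes of nearest profile. *Inpp5d* between genotypes, *Pigr*, *Cd300c*, *Cd300ld2*, *Rab37*, *Kdr*, *Cdh5*, *Pecam1*, *Kit*, *Csf1r* and *Clec7a* were named after their values were seen. Of the genes this rule names, 1 is not reported here.

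Alternatives were DESeq2 1.42.0, its size factors in edgeR, filterByExpr, no filter, limma-voom (limma 3.58.1) without rounding, the replicate number in the model, a fit of only the libraries compared, and leaving out each library. Library totals alone, with no TMM factor, were added after seeing the data. Exons, per-kb lengths and overlaps came from a GENCODE annotation of GRCm38 and promoters from RefSeq (GRCm38.p6).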

Additional observations from a re-analysis of the deposited data

Results flagged for a closer look

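*Cd300lf* stood out because its change after LPS + MSU had opposite signs in the genotypes. Both *Ncoa6*-sufficient libraries after LPS + MSU were above both in medium (log2 fold change 0.31), and both *Ncoa6*-KO libraries were below (-0.15). The difference of the changes, -0.46 with SE 0.156, had an unadjusted p of 0.0132 and an adjusted p of 0.690 by edgeR. With library totals the changes were -0.36 and -0.78, and less the median of all genes they were 0.42 and -0.08, against 0.43 and -0.08 with TMM factors.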

How the results depend on the processing

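Of 738 values of the 9 genes in alternative fits, 655 kept their direction and side of the threshold, 24 lost their call, 10 gained one and 49 changed sign, all but 1 of these (*Cd300lf* after LPS + MSU, below) for values that were not called. *Cd300lf* and *Treml2* stayed lower in *Ncoa6*-KO BMDMs in every fit, and where a cause is not named it was not tested. By limma-voom 1 gene was called between genotypes with medium alone, and leaving out a library gave 0 to 2 there and 1 to 2 with LPS + MSU. Over all genes, the 331 calls between genotypes with medium alone became 1152 with no filter and 22 to 351 without a library (fewest without the *Ncoa6*-sufficient medium library 1). The 632 calls with LPS + MSU became 1611 with no filter, 347 with only the 4 libraries compared and 49 to 765 without a library (fewest without the *Ncoa6*-sufficient LPS + MSU library 1). The interaction, with 0 calls, had 43 by DESeq2, 269 with no filter and 0 to 16 without a library. A fit without a library leaves a group of 1, which is assumed to vary like the other groups.

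The replicate numbers were not used to pair libraries, since the sources used here do not say that a number marks a shared mouse or day and each comparison has only 2 such pairs. Libraries of the same number deviated together with correlations of 0.283 and 0.353 between conditions within a genotype and 0.190 and 0.193 between genotypes within a condition (across 11219 genes, which are not independent replicates). With the replicate block across all groups, 1023 genes were called between genotypes with medium alone, 1532 with LPS + MSU and 86 in the interaction. With the replicate block within genotype the interaction had 444 calls, and 1 of the 9 genes was called, *Cd300lf* at -0.47 (adjusted p = 0.0385 by edgeR). *Cd300lb* between genotypes with LPS + MSU was called with the block across all groups (adjusted p = 0.0461), and *Trem1* after LPS + MSU in *Ncoa6*-KO BMDMs with the block within genotype (0.00723).

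Signs changed as follows. Between genotypes with LPS + MSU, *Trem3* was at 0.020 by limma-voom and 0.045 with library totals, *Tyrobp* at 0.0020 by limma-voom, 0.0026 with the block across all groups and 0.070 with library totals, and *Cd300a* at 0.0022 with that block and 0.066 with library totals. For LPS + MSU in *Ncoa6*-sufficient BMDMs, *Tyrobp* was at 0.049 with DESeq2 and with its size factors, and *Cd300lf* at -0.36 with library totals, which moved the median of all genes by -0.66. In *Ncoa6*-KO BMDMs *Tyrobp* was at -0.0079 with no filter and -0.62 with library totals. In the interaction *Cd300ld* was at -0.025 with DESeq2 and with its size factors. Without a library, log2 fold changes between genotypes with medium alone ran from -0.55 to 0.0097 for *Cd300a*, -0.62 to 1.09 for *Trem1*, -0.050 to 0.14 for *Trem2* and -0.25 to 0.11 for *Tyrobp*. With LPS + MSU they ran from -0.13 to 0.10 for *Cd300a*, -0.44 to 1.31 for *Trem1*, -0.39 to 0.42 for *Trem3* and -0.14 to 0.12 for *Tyrobp*. The effect of LPS + MSU ran from -0.23 to 0.13 for *Tyrobp* in *Ncoa6*-sufficient BMDMs, and from -0.060 to 0.10 for *Tyrobp* and -0.16 to 2.03 for *Trem1* in *Ncoa6*-KO BMDMs. The interaction ran from -0.017 to 0.54 for *Cd300a*, -0.18 to 0.21 for *Cd300ld*, -0.93 to 1.31 for *Trem1*, -0.023 to 0.22 for *Trem2*, -0.29 to 0.44 for *Treml2* and -0.11 to 0.25 for *Tyrobp*. *Trem1* and *Trem3* had 8 to 73 counts per library.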
